A study of Mus musculus with 4 samples.

Results

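The liver transcriptome of wild-type mice on a high-fat diet was set against that of wild-type mice on a control diet, using 2 of the 4 Affymetrix arrays of the study, 1 pooled array a diet. Each gene was read as the log2 expression value on the high-fat array minus that on the control array, over probe sets that carry 1 gene symbol, taking for each symbol the one that is brightest on average across the 4 arrays. Of 22180 genes read in this way, 13308 lay above a filter on dim signal and are described. Both wild-type groups were C57Bl6 mice of 16 weeks with the genotype MyD88 lox/lox, so the floxed gene was present in the controls too. The control diet held 9.4% fat and the high-fat diet 60%. The 2 arrays not compared here held ALB Cre MyD88 lox/lox mice of the same strain and age on the same diets, in which Cre is made under the albumin promoter, and their diet difference is given beside the wild-type one. Total liver RNA of 4 to 5 mice a group was combined before labelling, and mice were picked for the quality of their RNA. The spread between mice is therefore not in the data, no difference has a replicate check, and no test was made.

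The liver takes up dietary fatty acids, oxidises part of them in mitochondria and peroxisomes, and stores or exports the rest as triglyceride. It makes new fatty acids from carbohydrate under the transcription factors SREBP1c and ChREBP, makes cholesterol under SREBP2, and runs fatty acid oxidation under the nuclear receptor PPARalpha. Hepatocytes also secrete the acute phase proteins, whose genes respond to interleukin-6 and interleukin-1 through STAT3, C/EBP factors and NF-kB, and Myd88 encodes the adaptor that passes on signals of Toll-like and interleukin-1 receptors.

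The labelled tissue was checked against hepatocyte markers. Albumin (Alb) read 13.67 on the control array and 13.64 on the high-fat array, transthyretin (Ttr) 13.30 and 13.25, and the hepatocyte transcription factor gene Hnf4a 9.77 and 9.57. None of the 9 markers kept reached a 2-fold difference, and their median difference was -0.03. Median values of the 4 arrays lay between 3.53 and 3.56, and the wild-type arrays correlated with a Pearson r of 0.986 over all probe sets. Many probe sets lie near the lower end of the scale, where a real difference is compressed.

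Over the 13308 genes the median difference was -0.03, and the central 95% ran from -0.59 to 0.51. At least 2-fold differences, a log2 difference of 1 or more either way, were counted for 140 genes, or 1.05%. On high-fat diet 65 genes were higher (0.488%) and 75 lower (0.564%), and of all genes 44.9% had a difference above 0 and 55% below 0. Of the 65, 24 reached 3-fold and 14 reached 4-fold, while of the 75, 16 reached 3-fold and 8 reached 4-fold. Among the 3327 dimmest genes by their mean, 2 were higher and 1 lower by this measure, and among the 3327 brightest, 27 and 27. In RNA of whole tissue, fewer cells of a type and less RNA per cell cannot be told apart.

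**Figure D1:**
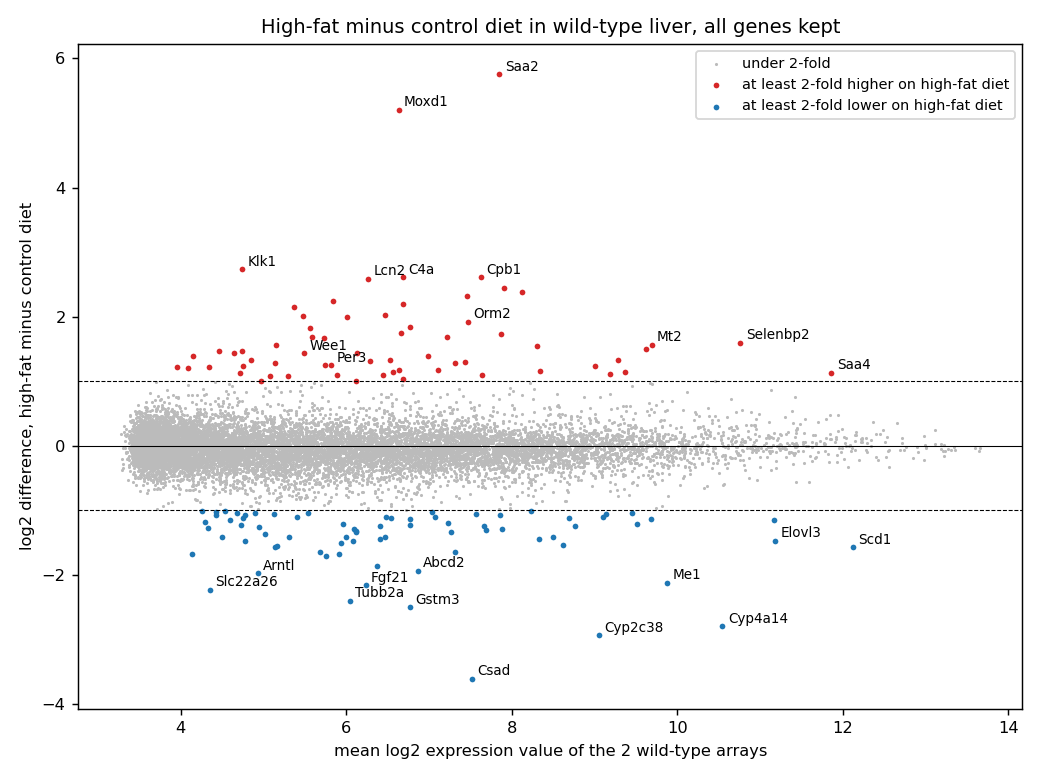
Difference between the high-fat and control arrays of wild type (log2, vertical axis) against the mean log2 value of these 2 arrays (horizontal axis), 1 point a gene, for 13308 genes. Red points are at least 2-fold higher (65 genes) and blue points at least 2-fold lower (75 genes) on high-fat diet. Saa2 and Moxd1 lie above 5 on the vertical axis, and Csad lies lowest.

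The acute phase response held the largest single difference. Saa2 encodes serum amyloid A2, an apolipoprotein of high-density lipoprotein that hepatocytes release in inflammation. It read 4.97 on the control array and 10.73 on the high-fat array, a log2 difference of 5.76 or 54.0-fold. In the knockout arrays it read 12.34 on the control array and 10.83 on the high-fat array, so the wild-type control array was the 1 low array of the 4. Saa3, a serum amyloid also made outside hepatocytes, read 5.46 and 7.49 in wild type, and Saa4, which is made constitutively, 11.30 and 12.43. Serum amyloid genes share sequence, so these values may mix copies.

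The iron-scavenging lipocalin gene Lcn2 read 4.97 on the control array and 7.56 on the high-fat array, a difference of 2.59. Orm2 and Orm3 encode orosomucoids, plasma proteins that bind small molecules, and their probe sets may share sequence. Orm2 read 6.51 and 8.44, and the dimmer Orm3 read 3.49 and 4.69. The metallothionein genes Mt1 and Mt2, which encode small metal-binding proteins, read 7.01 and 8.73, and 8.91 and 10.47. Steap4, a metalloreductase gene, read 8.80 and 9.94. These genes were all lowest on the wild-type control array. Below 2-fold, Serpina3n, a secreted protease inhibitor gene, read 11.05 and 11.80, and Lrg1, a leucine-rich plasma glycoprotein gene, 8.66 and 9.24.

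Of 36 acute phase genes kept, 26 were higher on high-fat diet, 9 of them at least 2-fold, with a median of 0.19 against -0.03 over all genes. The size of the difference varied within the list. All 4 orosomucoid and lipocalin genes were higher (median 1.56), as were 4 of 5 genes of the serum amyloid group (median 1.13), while Apcs, the serum amyloid P gene, read 8.16 and 7.62. Among 7 clotting and protease inhibitor genes the median was 0.16, and the fibrinogen genes Fga, Fgb and Fgg differed by 0.05, -0.02 and -0.08. C-reactive protein (Crp) differed by 0.01. The genes that carry the signal in the cell were level as well: Stat3 differed by 0.06, Socs3 by -0.01 and Cebpb by 0.11, with a median of 0.08 over 8 signalling genes. In knockout 10 of the 36 were higher on high-fat diet, where 52.2% of all genes were, and the median was -0.22.

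**Figure D2:**
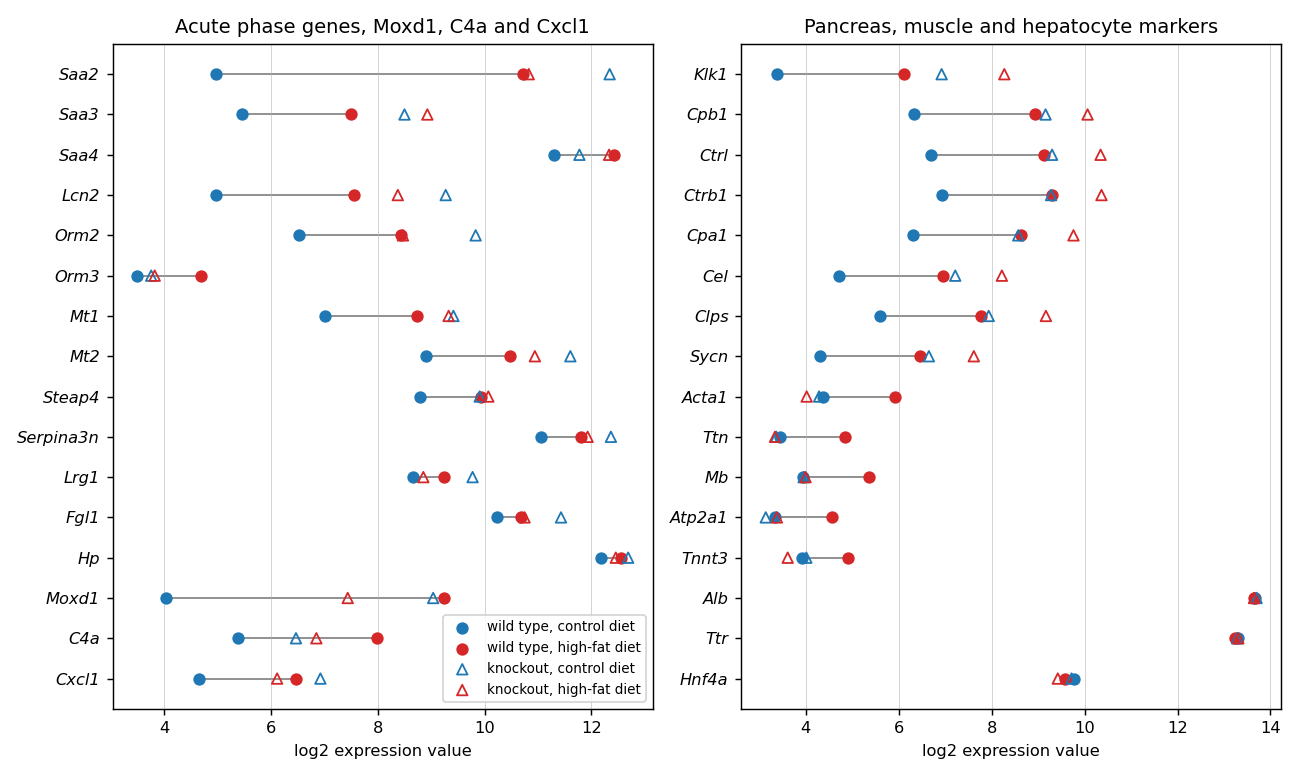
Log2 expression value (horizontal axis) of acute phase genes with Moxd1, C4a and Cxcl1 (left) and of pancreas, muscle and hepatocyte markers (right) on the 4 pooled arrays, 1 array a point. Filled circles joined by a line are wild type, open triangles knockout, blue control diet and red high-fat diet. For Saa2, Lcn2 and the pancreas genes the wild-type control array lies apart at the low end, and the 4 points of Alb lie on one another.

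Promoter sequences of the 9 acute phase genes past 2-fold were searched because these genes were high together, and 4 of them are shown. They came from RefSeq (build GRCm38.p6), from 250 bases before to 50 bases after the start of the gene. Each was searched on both strands for the C/EBP pattern TTGCNNAA, which was found in 8 of the 9 (Lcn2, Mt2, Orm2, Orm3, Saa2, Saa3, Saa4 and Steap4), against 10.8% of all 32851 promoters of this length. A gene counted when any of its promoters matched, while the share is over single promoters, so the measures are unlike. The Saa genes are copies of one another, as are Orm2 and Orm3, so these matches are not independent. A consensus for NF-kB was found in 1 of them, Steap4, and in 1.63% of all promoters, and it cannot contain the C/EBP pattern. The metal response core was found as TGCGCNC in Mt1 and Mt2 and in 15.4% of all promoters, and as TGCACNC in Mt1, Mt2 and Orm3 and in 12.6%. In the stretches below, written 5′ to 3′ on the strand of the gene, capitals mark the C/EBP match, which lies at position -183 from the start in Saa2, -99 in Saa3, -216 in Lcn2 and -120 in Orm2. A match describes these letters and is not a measured binding site.
Saa2, chr7:46751620-46751687, plus strand: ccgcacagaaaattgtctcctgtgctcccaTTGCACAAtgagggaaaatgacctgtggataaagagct
Saa3, chr7:46715738-46715805, minus strand: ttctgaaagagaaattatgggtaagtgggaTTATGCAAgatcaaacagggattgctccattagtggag
Lcn2, chr2:32387918-32387985, minus strand: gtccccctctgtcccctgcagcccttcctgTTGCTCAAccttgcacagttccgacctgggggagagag
Orm2, chr4:63362299-63362366, plus strand: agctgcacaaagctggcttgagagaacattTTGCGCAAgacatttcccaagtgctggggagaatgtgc

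Complement and coagulation genes, which hepatocytes also secrete, were higher for 23 of 32 genes, with a median of 0.21. C4a, a copy of the complement gene C4b, read 5.38 on the control array and 7.99 on the high-fat array and was the 1 gene of the list past 2-fold. C4b itself read 10.24 and 10.59, and since the copies are nearly identical, the C4a value is uncertain. The terminal pathway genes differed by 0.23 for Hc, the C5 gene, 0.42 for C8a, 0.34 for C8b and 0.36 for C9. Among the clotting factors F11 read 8.99 and 9.91. The C1q genes, which macrophages make, were on the other side, with C1qa at 7.22 and 6.80 and C1qb at 9.31 and 9.05. In knockout 11 of the 32 were higher on high-fat diet and the median was -0.11.

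Transcripts of exocrine pancreas read at different levels on the 4 arrays. The carboxypeptidase gene Cpb1 read 6.33 on the wild-type control array, 8.93 on the wild-type high-fat array, 9.16 on the knockout control array and 10.06 on the knockout high-fat array. The order was the same for the kallikrein gene Klk1, at 3.38, 6.11, 6.92 and 8.27, and for the lipase gene Cel, at 4.72, 6.96, 7.21 and 8.22. On the wild-type control array Klk1 lay below the filter cut of 3.47. Not all the markers had this order. Ctrb1 and Cpa1 read slightly higher on the wild-type high-fat array than on the knockout control array, at 9.31 and 9.28, and 8.62 and 8.57. Of 25 pancreas markers 17 were kept, all 17 were higher on high-fat diet and 13 were at least 2-fold higher. These genes passed the filter partly through the arrays where they are high, so the count is no support, and trypsin and chymotrypsin copies share sequence. Before the filter 18 of 21 were higher, with a median of 1.68. Amy2a5 and Pnlip had no probe set with their symbol alone.

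Skeletal muscle transcripts were high on the wild-type high-fat array. Skeletal actin (Acta1) read 5.93 there, against 4.37 on the wild-type control array and 4.28 and 4.02 on the knockout control and high-fat arrays. Myoglobin (Mb) read 5.37 there and between 3.93 and 3.99 on the other 3, and the titin gene Ttn 4.84 against 3.34 to 3.45. Before the filter all 16 muscle markers were higher on high-fat diet in wild type, with a median of 0.87, and 10 were kept. Nebulin (Neb) had another pattern, since it read 7.54 on both high-fat arrays and 5.80 and 6.52 on the control arrays. Thus 18 of the 65 genes past 2-fold were pancreas or muscle markers and 9 were acute phase genes. Of all 13308 genes kept, 17 were pancreas markers, 10 muscle markers and 36 acute phase genes. The muscle genes Ttn and Atp2a1 passed the filter through the wild-type high-fat array, where they are high, so the count is no support. Median levels of the pancreas list were 4.48 and 6.49 on the wild-type control and high-fat arrays, and 6.97 and 8.22 on those of the knockout. Those of the acute phase list were 8.85 and 9.79 in wild type, and 9.94 and 9.87 in knockout. The part of pancreas and muscle transcripts in the other results was not tested.

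Fatty acid synthesis went with lower values for most of its enzymes. The malic enzyme gene Me1, which supplies NADPH, read 10.94 on the control array and 8.81 on the high-fat array. Scd1, which places the double bond in stearate and palmitate, read 12.91 and 11.34. Elovl3 and Elovl5, elongases of long-chain fatty acids, read 11.92 and 10.44, and 11.75 and 10.59. Acacb, the acetyl-CoA carboxylase at the mitochondrion, read 6.82 and 5.34. In the knockout arrays each of these was also lower on high-fat diet, with Scd1 at 12.62 and 11.75 and Elovl5 at 11.55 and 10.97.

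By role, all 6 genes of carbon and NADPH supply were lower (median -0.32), all 3 carboxylase and synthase genes (median -0.60) and 7 of 8 elongases and desaturases (median -0.33). Fasn, the fatty acid synthase gene, read 9.54 and 8.94. Acaca, the cytosolic carboxylase, differed by only -0.25, and Elovl6, which lengthens palmitate, was the 1 elongase above 0, at 0.10. Triglyceride assembly was nearer to level, with 6 of 9 lower, where 55% of all genes were, and a median of -0.09. Dgat2, which adds the last acyl chain, read 10.55 and 10.79. The 5 regulators were mixed, with 3 higher and 2 lower in wild type, and 2 higher and 3 lower in knockout. Srebf1, the SREBP1 gene, read 6.62 and 7.44, and Thrsp, a nuclear protein gene of lipogenic tissue, 9.96 and 10.95, just short of 2-fold. Mlxipl, the ChREBP gene, read 9.67 and 9.59, and Insig2, which holds SREBP proteins in the endoplasmic reticulum, 9.08 and 8.22. The whole list had 24 of 31 genes lower and a median of -0.25.

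**Figure D3:**
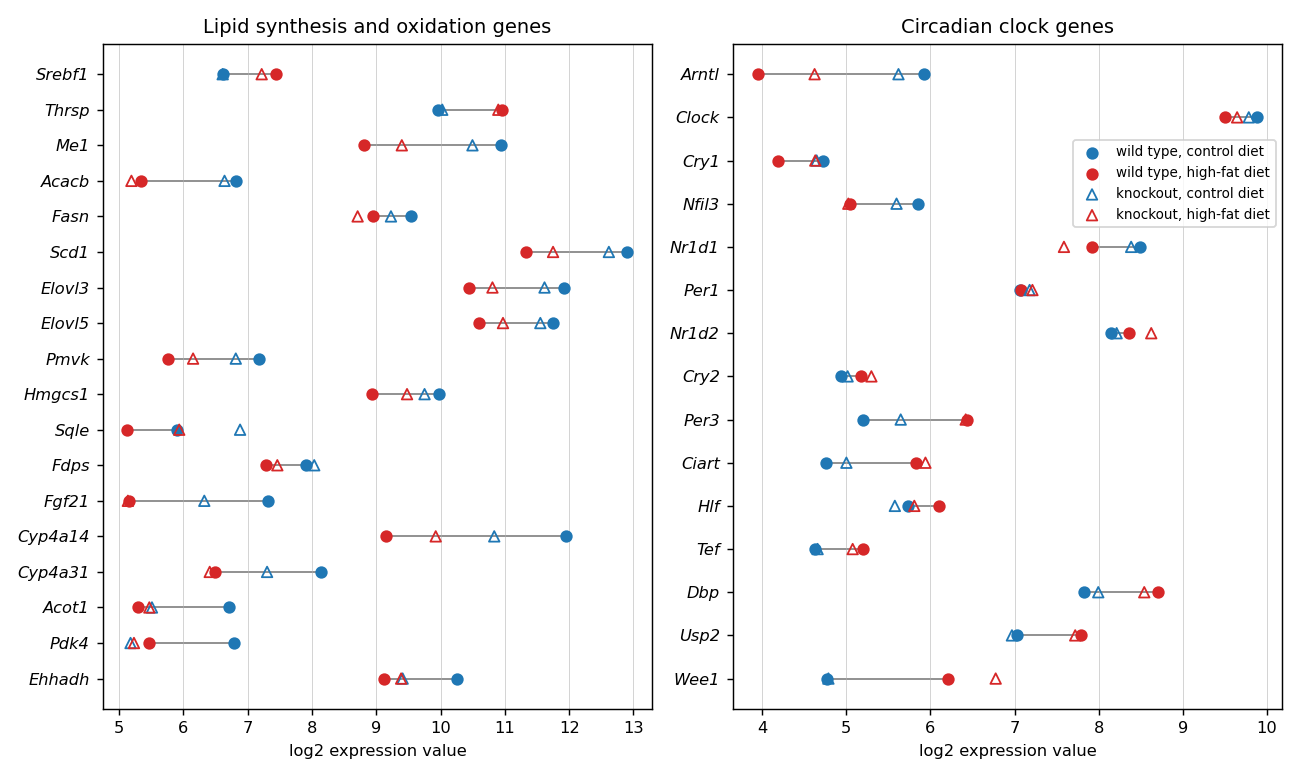
Log2 expression value (horizontal axis) of genes of lipid synthesis and oxidation (left) and of the circadian clock (right) on the 4 pooled arrays, 1 array a point. Filled circles joined by a line are wild type, open triangles knockout, blue control diet and red high-fat diet. Me1, Scd1 and Arntl are lower and Thrsp, Per3 and Wee1 higher on the high-fat array in both genotypes.

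Cholesterol synthesis genes were lower for 14 of 16, with a median of -0.30. Pmvk, the phosphomevalonate kinase gene, read 7.18 on the control array and 5.77 on the high-fat array, and Hmgcs1, the cytosolic HMG-CoA synthase gene at the head of the pathway, 9.98 and 8.93. Below 2-fold, the squalene epoxidase gene Sqle read 5.90 and 5.13, Fdps, a farnesyl diphosphate synthase gene, 7.91 and 7.28, and Cyp51, a lanosterol demethylase gene, 7.94 and 7.35. Some steps were level, with Dhcr7 at 7.88 and 7.87, Ebp at 9.25 and 9.22 and Lss at 5.25 and 5.21.

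Some targets of PPARalpha were far lower and others level, also within one function. The omega hydroxylase gene Cyp4a14 read 11.94 on the control array and 9.15 on the high-fat array, and Cyp4a31 read 8.14 and 6.50, while Cyp4a12b was level at 9.07 and 9.04. Cyp4a copies share sequence. Fgf21, a liver hormone gene of fasting, read 7.31 and 5.16. The cytosolic thioesterase gene Acot1 read 6.71 and 5.30, the peroxisomal bifunctional enzyme gene Ehhadh 10.26 and 9.12, and Pdk4, which encodes a kinase that shuts off pyruvate dehydrogenase, 6.78 and 5.46. For these last 3 genes the wild-type control array was the 1 high array, since the knockout control array read 5.51 for Acot1, 9.41 for Ehhadh and 5.18 for Pdk4.

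Most enzymes of mitochondrial beta-oxidation were near level. Cpt1a, the carnitine palmitoyltransferase that admits long-chain fatty acids, read 10.45 and 10.42, Acadm 11.28 and 11.21, Acadl 10.37 on both diets and Hadha 10.30 and 10.18. Over 11 mitochondrial genes, Pdk4 among them, the median was -0.06. Over 6 peroxisomal genes it was -0.12, with Ehhadh the 1 gene past 2-fold and Acaa1a and Decr1 higher, by 0.10 and 0.15. It was -0.99 over 4 omega hydroxylases and -0.79 over 4 thioesterases. All 4 thioesterases were lower in wild type, but their median in knockout was 0.75. Ppara itself read 8.85 and 8.99, and the coactivator gene Ppargc1a 6.38 and 5.61. The whole list had 24 of 32 genes lower. Crat and Slc22a5, a carnitine acyltransferase and the carnitine transporter, are outside the lists and were chosen after their values were seen; Crat read 8.35 and 7.04, and Slc22a5 6.79 and 5.45.

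Lipid droplet, uptake and lipase genes held no 2-fold difference in wild type at the probe sets used. Against 55% of all genes, 20 of the 28 were lower, with a median of -0.14. Lowest was Fabp5, a fatty acid binding protein gene, at 6.63 and 5.73, and it read 8.67 and 5.82 in knockout. Another of its probe sets was past 2-fold in wild type, at 6.38 and 5.35. The droplet coat gene Plin2 read 9.82 and 9.21, and Plin5, found on droplets of oxidative tissue, 8.29 and 7.47. Cd36, a fatty acid transporter gene, read 8.44 and 7.96 in wild type, and 0.90 higher on high-fat diet in knockout. Pparg, which drives fat storage, read 5.07 and 4.46 in wild type and was 0.53 higher in knockout. Fitm1, which helps droplets form, was the highest of the list in wild type, at 8.37 and 8.85. Cidec, a droplet fusion gene known for steatosis, read 4.31 and 4.19.

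Clock genes differed in both directions. Arntl (BMAL1), the activator that pairs with Clock, read 5.92 on the control array and 3.95 on the high-fat array. Nfil3, a repressor of D-box genes, read 5.85 and 5.05, Cry1 4.73 and 4.19, Nr1d1, a repressor of Arntl, 8.49 and 7.93, and Clock 9.89 and 9.50. On the other side were Per3 at 5.20 and 6.44 and the repressor gene Ciart at 4.76 and 5.83. Among the outputs, the PAR-bZIP factor genes Dbp, Tef and Hlf read 7.83 and 8.71, 4.63 and 5.20, and 5.74 and 6.10. Usp2, a deubiquitinase gene, read 7.03 and 7.79, and the cell cycle kinase gene Wee1 differed by 1.43, from 4.77 on control diet. Per1 was level at 7.07 and 7.08. Of 7 outputs 6 were higher (median 0.57). In the whole list 14 of 20 genes were higher, where 44.9% of all genes were. The sign was the same in knockout for 18 of the 20, and for 7330 of all 13308 genes. The sources used here do not give the time of day at which the mice were killed.

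Clock promoters were searched for the elements through which the loop is known to run, since the members differed in opposite directions. Of the 20 genes 18 had a promoter in the RefSeq table. The E-box CACGTG, bound by CLOCK and BMAL1, was found in 4 (Ciart, Cry1, Per1 and Tef) and in 7.15% of all promoters. The D-box TTATGTAA, bound by PAR-bZIP factors and NFIL3, was found in Per3 alone among these genes and in 0.938% of all. The core TAGGTCA, bound by ROR and REV-ERB receptors, was found in Arntl and Nfil3 and in 2.61% of all. Both strands were searched, and again a gene counted when any of its promoters matched, while the shares are over single promoters. The carriers of the E-box were not all on one side, as Ciart and Tef were higher, Cry1 lower and Per1 level. The stretches below run 5′ to 3′ on the strand of the gene, with matches in capitals, and show 5 of the genes with a match, on both sides of 0.
Arntl, chr7:113207531-113207557, plus strand: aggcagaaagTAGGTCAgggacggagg
Nfil3, chr13:52981040-52981081, minus strand: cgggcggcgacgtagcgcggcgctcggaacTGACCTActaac
Per3, chr4:151044786-151044900, minus strand: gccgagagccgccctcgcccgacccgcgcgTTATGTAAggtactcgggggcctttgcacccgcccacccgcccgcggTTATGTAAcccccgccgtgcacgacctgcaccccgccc
Ciart, chr3:95882237-95882374, minus strand: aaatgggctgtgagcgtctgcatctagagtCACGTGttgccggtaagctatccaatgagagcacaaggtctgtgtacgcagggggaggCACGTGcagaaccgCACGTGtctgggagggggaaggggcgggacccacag
Tef, chr15:81802516-81802581, plus strand: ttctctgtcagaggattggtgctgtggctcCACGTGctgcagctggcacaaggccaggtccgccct

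Drug metabolism genes under the receptors CAR and PXR were lower for 28 of 42, with a median of -0.40, and 8 were at least 2-fold lower. Of these 8, Cyp2a4, Cyp2b9 and Cyp2b13 are also counted with the female-biased genes below, so the 2 results overlap. Cyp2b10 was the 1 higher of 5 Cyp2a and Cyp2b genes, with a difference of 0.15. Cyp2c38, a monooxygenase of fatty acids and drugs, read 10.53 on the control array and 7.59 on the high-fat array, and Cyp2c40 6.51 and 4.87. The relatives Cyp2c54 and Cyp2c70 were on the other side, at 9.71 and 10.54, and 11.72 and 12.18, and Cyp2c29 read 11.73 and 11.85. Cyp3a11, the main drug-oxidising Cyp3a of mouse liver, read 9.66 and 8.55. These families have near-identical copies, so single members are uncertain. Gstm3, a glutathione transferase gene, read 8.03 and 5.52, and 5 of 6 Gstm genes were lower (median -0.65). All 6 sulfotransferase (Sult) genes were higher (median 0.41). The receptor genes differed less, with Nr1i2 (PXR) at 8.33 and 7.92 and Nr1i3 (CAR) at 9.40 and 9.97. In knockout the list median was 0.07.

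Of 12 genes with female-biased expression in mouse liver 8 were kept. All 8 were lower, 6 of them at least 2-fold, with a median of -1.43. Slc22a26 and Cyp2b13 passed the filter through the wild-type control array, where they are high, so the count is no support. In knockout 5 of the 8 were higher on high-fat diet, 2 of them at least 2-fold, with a median of 0.30. Their median level on control and high-fat diet was 6.63 and 5.61 in wild type, and 4.82 and 6.34 in knockout. Slc22a26, an organic anion transporter gene, read 5.47 on the control array and 3.24 on the high-fat array, Abcd2, a peroxisomal transporter gene of very long-chain fatty acids, 7.83 and 5.90, Cyp2b13 4.97 and 3.30, and Cyp2a4 9.21 and 7.80. Cyp2b9 read 9.05 and 7.61 in wild type, and 5.28 and 8.60 in knockout. The wild-type control array was the 1 high array for Slc22a26, which read 3.39 and 3.42 in knockout. Male-biased genes were split, with 5 of 11 higher and a median of -0.02, and Cyp7b1, an oxysterol hydroxylase gene, read 10.71 and 11.57. The Y-linked gene Eif2s3y read 7.84 and 7.71, and Xist lay below the filter at 3.23 and 3.07. In growth hormone signalling, which sets this bias, Socs2, a feedback inhibitor gene, read 7.30 and 5.44, a difference of -1.86. It was -0.98 in the mean of its probe sets, of which the other is dim, at 3.68 and 3.57. Bcl6, a repressor gene of female-biased loci, read 6.53 and 7.70. Igf1 and Ghr were close to level, with differences of 0.18 and 0.24.

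Csad, the decarboxylase gene that makes hypotaurine for taurine synthesis, had the lowest difference of all genes. It read 9.32 on the control array and 5.71 on the high-fat array, a log2 difference of -3.61 or 12.2-fold, and in knockout 8.18 and 6.71. The step before it, Cdo1, was level at 12.01 and 11.87, and all 6 taurine genes were lower (median -0.29). Bile acid genes, whose products are conjugated with taurine, were near level over 21 members (median 0.04), and no member reached 2-fold. The regulator gene Nr0b2 (SHP) read 7.91 and 7.38, the export pump gene Abcb11 11.23 and 10.70, and Klb, the co-receptor of FGF15 and FGF21, 8.52 and 7.87. The synthesis genes were higher for 6 of 8, with a median of 0.21.

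Insulin and fasting genes were mixed. Igfbp1, a binding protein gene that insulin represses, read 10.12 and 8.91, and Irs2 6.23 and 5.33. The leptin receptor gene Lepr read 5.52 and 4.05. Of 11 insulin genes 9 were lower (median -0.13). Glucose and glycogen genes held no 2-fold difference, with 9 of 19 higher and a median of -0.07. Pck1, the gluconeogenic gatekeeper, read 12.22 and 11.90, and G6pc 11.72 and 11.16. The glycogen-targeting genes Ppp1r3c and Ppp1r3g read 7.31 and 6.68, and 4.67 and 3.79.

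Stress and growth genes differed by group. Tubb2a, a beta-tubulin gene, read 7.24 on the control array and 4.84 on the high-fat array, and 6.77 and 5.46 in knockout. Cdkn1a, the p21 brake on the cell cycle, read 5.95 and 4.39, and Ccnd1, the cyclin D1 gene, 7.04 and 5.93. Proliferation markers such as Mki67 (3.73 and 3.66) lay near the lower end of the scale on both. Of 12 immediate early genes 10 were lower (median -0.34), with Egr1 at 5.39 and 4.70 and Jun at 7.05 and 6.52. Of 9 heat shock genes 5 were higher (median 0.04), where 44.9% of all genes were. The integrated stress response genes were lower for 8 of 8 (median -0.23), led by Atf5 at 8.75 and 7.73, while 11 of 12 chaperone and unfolded protein response genes were higher (median 0.12), with Creld2 at 8.25 and 8.88. Against 55% of all genes, 7 of 10 NRF2 genes were lower (median -0.09). Among them Hmox1, the haem oxygenase gene, read 6.03 and 5.23, and Gclc, which limits glutathione synthesis, differed by -0.65. Beside the same 55%, ribosomal protein genes were lower for 17 of 19 (median -0.17) and respiratory chain genes for 16 of 22 (median -0.09). Neither list held a 2-fold difference.

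Inflammation and fibrosis genes outside the acute phase were level as a list (16 of 32 higher, median 0.00). Cxcl1, a neutrophil chemokine gene, read 4.64 on the control array and 6.47 on the high-fat array. Cxcl13, a B cell chemokine gene, read 7.83 and 6.63. Tnf, Il6 and Ccl2 lay below the filter on both diets, with Tnf at 3.41 and 3.34 and Ccl2 at 3.22 and 3.30. The collagen gene Col1a1 read 4.49 and 4.11, and Trem2, a gene of lipid-associated macrophages, 3.98 and 3.87. Cd9, a tetraspanin gene, read 7.38 and 6.16, a difference of -1.22. It was -0.53 in the mean of its probe sets, of which the other is dim, at 3.51 and 3.67. In the Toll-like receptor pathway 7 of 11 were higher (median 0.23), where 44.9% of all genes were. The flagellin receptor gene Tlr5 read 6.24 and 6.96, and the brake Tnfaip3 3.80 and 4.48. Myd88 read 6.10 and 6.44.

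Kupffer cell and macrophage markers were lower for 12 of 14, with a median of -0.29 and no 2-fold difference. The scavenger receptor gene Marco read 6.02 and 5.30, Adgre1 (F4/80) 6.90 and 6.28 and Timd4, a marker of resident cells, 6.01 and 5.47, while Clec4f read 8.65 and 8.73. In knockout 11 of the 14 were lower and 3 higher on high-fat diet, with a median of -0.11, and Marco and Adgre1, at 0.39 and 0.18, were among the 3. Sinusoidal endothelial markers were lower in wild type for 8 of 12 (median -0.20), where 55% of all genes were, with Cdh5 at 8.80 and 8.38. Stellate cell markers were split 6 and 6, with Acta2 at 6.09 and 6.64. T and NK cell markers had a median of -0.02 over 8 kept of 15. Of the B and plasma cell markers 3 were kept, among them the antibody heavy chain gene Ighm at 7.74 and 8.31. Its probe sets differed, since another read 6.04 and 7.76, past 2-fold, and yet another 4.79 and 4.74. Of the neutrophil markers 1 of 10 was kept. Guanylate binding protein genes, which interferon gamma induces, were higher for 5 of 6 in the list, with Gbp11 at 5.87 and 7.20 and Gbp10 at 7.77 and 8.92, but 10 of 13 other interferon-stimulated genes were lower (median -0.18). Gbp copies share sequence.

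**Figure D4:**
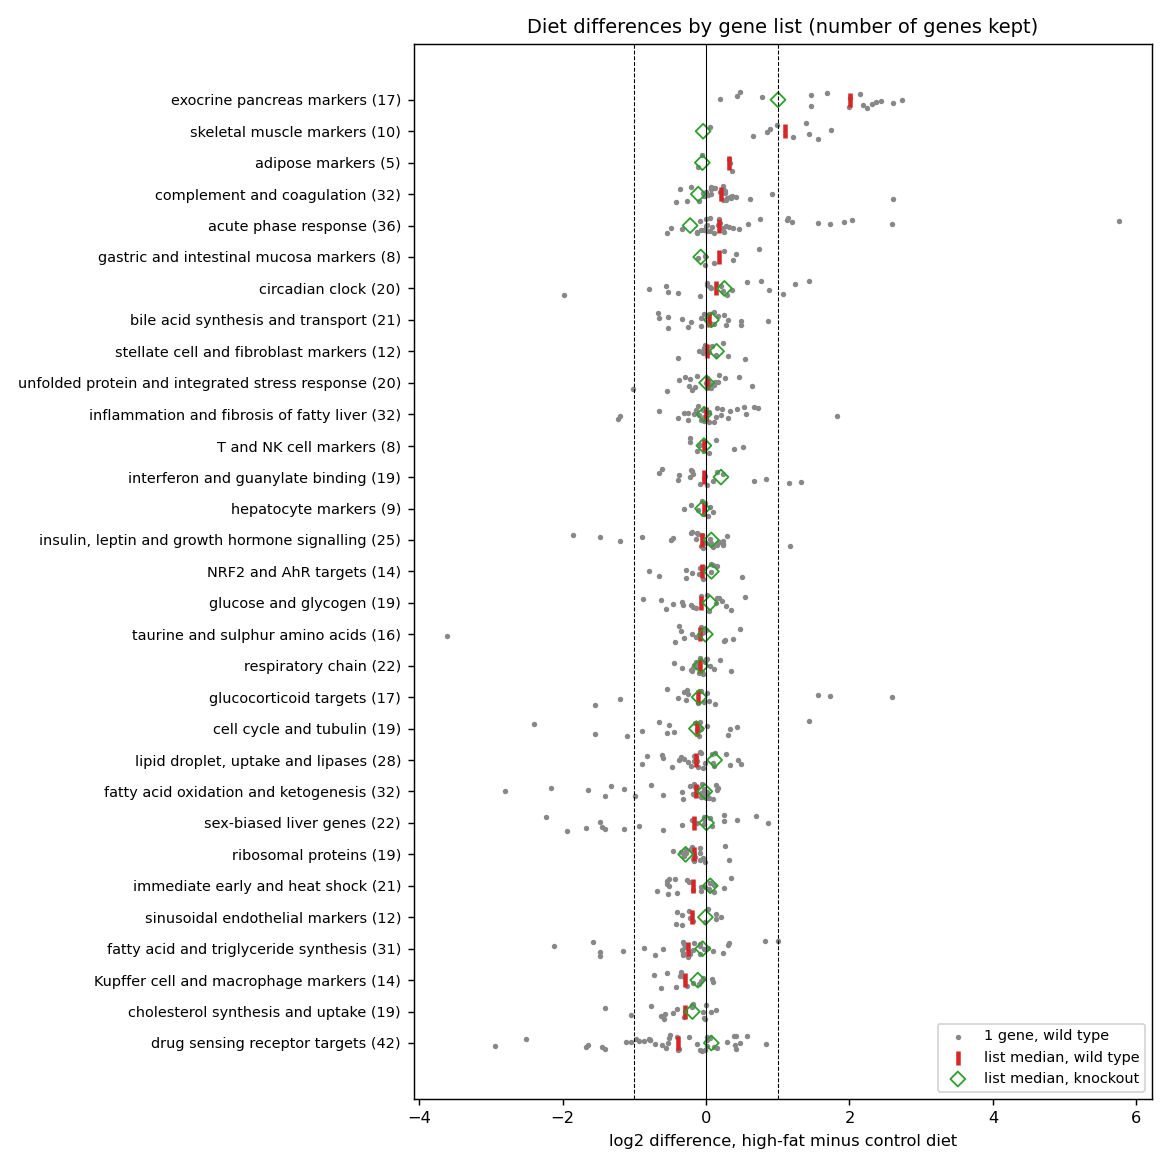
Log2 difference, high-fat minus control diet (horizontal axis), of the genes kept in each list with at least 5 of them (number in brackets). Grey points are single genes in wild type, red bars the list median in wild type and green diamonds the list median in knockout, with dashed lines at 2-fold. Drug sensing receptor targets have the lowest wild-type median (-0.40) and pancreas markers the highest (2.01).

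Other genes far from 0 fall in no list. Moxd1, a relative of dopamine beta-hydroxylase, read 4.03 on the wild-type control array and 9.24 on the wild-type high-fat array, a difference of 5.20 or 36.8-fold, and 9.04 and 7.44 in knockout. Nnmt, which methylates nicotinamide, read 5.84 and 7.69, and 7.78 and 7.30 in knockout, so for both genes the wild-type control array was the 1 low array. Selenbp2, a selenium-binding protein gene, read 9.97 and 11.56. The zinc finger gene Zfp992 read 4.75 and 6.43, and 5.12 and 6.97 in knockout, so both high-fat arrays were high. Among the lower genes, Spon2, a matrix protein gene, read 6.61 and 4.91, Emp2, a membrane protein gene, 5.93 and 4.35, and Il22ra1, the interleukin-22 receptor gene, 6.69 and 5.18. Serpina7, the thyroxine-binding globulin gene, read 9.39 and 7.85. Chka, the first enzyme of phosphatidylcholine synthesis from choline, read 7.14 and 5.69, a difference of -1.45. It was -0.79 in the mean of its probe sets, of which the other is dim, at 3.30 and 3.17.

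The wild-type differences were set beside those of the knockout arrays, which share no array with them. Over 13308 genes Pearson's r between the differences was 0.241 and Spearman's rho 0.188, across genes that are not independent replicates. Of all 13308 genes 7330 had the same sign in both genotypes. Of the 65 higher genes 46 had the same sign in knockout, 21 of them at least 2-fold, with a median knockout difference of 0.55. The 46 included all 13 pancreas markers past 2-fold, and the 21 included 9 of these and the muscle marker Neb. Of the 75 lower genes 60 had the same sign, 10 of them at least 2-fold, with a median of -0.46. In knockout 81 genes, or 0.609% of all, differed at least 2-fold on diet, 43 higher (0.323%) and 38 lower (0.286%), and 52.2% of all genes were above 0 and 47.7% below. Saa2, Moxd1 and Orm2, higher in wild type, and Cyp2b9, lower in wild type, were at least 2-fold different the opposite way in knockout.

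The wild-type control array was the lowest of the 4 for 59 of the 65 higher genes and the highest for 72 of the 75 lower genes. Over all genes it was lowest for 22.9% and highest for 28.1%. The wild-type high-fat array was highest of the 4 for 28 of the 65 and lowest for 59 of the 75, against 20.7% and 28.1% of all genes. These genes were picked by the difference between the same arrays, which raises such shares by itself, so the counts describe the genes and support nothing.

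**Figure D5:**
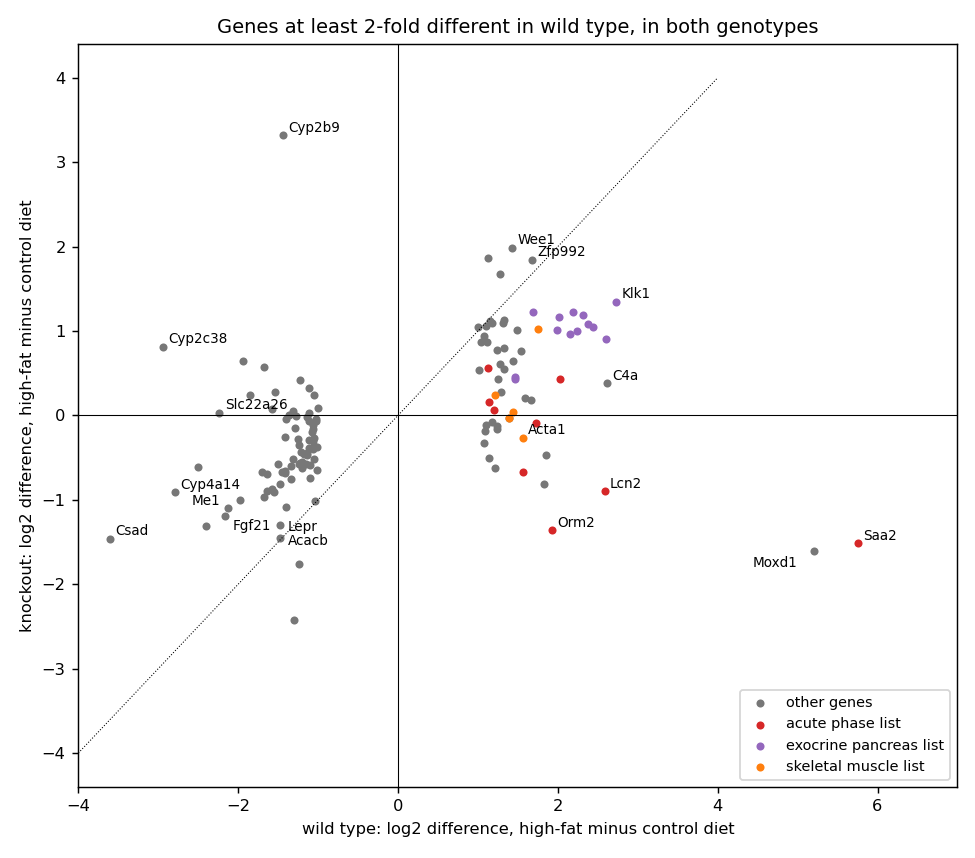
Diet difference (log2, high-fat minus control) in wild type (horizontal axis) and knockout (vertical axis) of the 140 genes at least 2-fold different in wild type, 1 point a gene, with a dotted line of equal differences. Acute phase genes lie at or below 0.56 on the vertical axis, pancreas genes above 0 on both axes, and Cyp2b9 lies alone at the upper left.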

How the data were processed

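Liver RNA was measured on 4 Affymetrix arrays, 1 pool of 4 to 5 mice each, and the wild-type pair was compared. The authors deposited log2 expression values per probe set, and the submitters' processing notes name RMA and Affymetrix Expression Console; their versions and the library of probe sets were not given in the sources used here. This method subtracts background, sets the arrays to 1 distribution and combines probes, which compresses differences of dim probe sets. Detection calls and scan batches were not used, and the number of arrays limits the precision.

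Of 41345 probe sets, 23521 had 1 symbol in the platform annotation, 1814 several and 16010 none; the last 2 kinds were not named. The brightest probe set was taken for 1082 genes with several. Genes whose mean over the 4 arrays was under the 40th percentile (3.47) were left out. Differences are subtractions, counted at 2-fold, without a test. The counting step was run on simulated data with planted changes well past this threshold and little noise, which does not measure the error of the counts. The 35 lists hold 765 symbols, 598 of them kept. Members, lists and patterns were chosen with earlier results of these data known. The text names list members and the 25 highest and 25 lowest genes, without predicted genes and small RNAs, and others only where said. Alternatives were other normalisations (limma 3.58.1 in R 4.3.3), filters, thresholds and the mean of probe sets. Other steps ran in Python 3.11.15 with matplotlib 3.10.9, SciPy 1.17.1, pandas 2.3.3 and NumPy 2.4.6.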

Additional observations from a re-analysis of the deposited data

Results flagged for a closer look

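Genes at least 2-fold different with diet in both genotypes but in opposite directions were picked out, and these differences between genotypes were not tested. For Saa2 the knockout difference minus the wild-type one was -7.27 (-1.52 against 5.76), for Moxd1 -6.80 (-1.60 against 5.20), for Orm2 -3.28 (-1.36 against 1.92) and for Cyp2b9 4.76 (3.32 against -1.44). Lists whose medians lay on opposite sides of 0 by over 0.1 in both genotypes were the acute phase response, with -0.22 in knockout and 0.19 in wild type (-0.41), complement and coagulation, with -0.11 and 0.21 (-0.32), and lipid droplet, uptake and lipases, with 0.12 and -0.14 (0.26). These were not tested either.

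Among 17824 probe sets with no single gene symbol, which enter no comparison above, 152 had a wild-type difference of 2-fold or more upwards on high-fat diet and 255 downwards, together 2.28%. They were counted per probe set and without the filter on dim signal, so this share is not comparable with the 1.05% of genes. The largest difference was 4.79.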

How the results depend on the processing

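No paired analysis was possible because each group is 1 array. Under other normalisations and the mean of probe sets, none of the 81 genes recomputed changed sign, and 240 of their 243 values stayed within 1.5-fold. Under these and other filters, 144 of 155 list medians stayed within 0.1. Medians near 0 changed sign, so these lists have no settled direction: interferon (-0.027, and 0.016 with loess and 0.020 with quantiles), inflammation and fibrosis (-0.0030, and up to 0.034), hepatocyte (-0.028, and 0.017 with quantiles), stellate cell (0.016, and -0.014 with a 60th percentile filter) and T and NK cell markers (-0.024, and up to 0.085). The exceptions among genes were Cd9, Chka and Socs2 (-0.53, -0.79 and -0.98 with the mean of probe sets), whose other probe sets are dim. At 1.5-fold 224 genes were higher and 336 lower; without the acute phase, pancreas and muscle lists, an alternative chosen after seeing the data, 38 were higher. With a 60th percentile filter the medians were -0.035 for sex-biased genes, -0.066 for immediate early and heat shock, -0.60 for cell cycle and tubulin, 2.15 for pancreas, 1.44 for muscle and 0.42 for mucosa. With no filter they were 0.085 for T and NK cells, 0.19 for adipose, 1.68 for pancreas, 0.87 for muscle and 0.028 for mucosa. The filter changes which members are counted. Signal over background is unknown, so dim genes carry little weight, and with 1 pool a diet, variation between mice cannot be told apart from diet.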
